A study of Rattus norvegicus with 6 samples.

Results

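The genes described here encode the subunits of the transcription factor AP-1 and the related factor ATF3: Fos, Fosb, Fosl1, Fosl2, Jun, Junb, Jund and Atf3. They were found as the array probes whose transcript accession carries one of these 8 rat symbols. Of the 8 genes, 7 have a probe, and Fosb has none under this rule. Jund has 2 probes and the others 1 each, which makes 8 probes among 41012 gene probes in all. Each of the 8 probes was above background on all 6 arrays, and 7 genes entered the comparison among 21847 genes and unnamed probes tested. Bone marrow cells came from male rats aged 8 weeks and were grown under osteogenic conditions. The control group received no treatment, and the other group received low-intensity pulsed ultrasound (LIPUS), sound waves given in short bursts as a mechanical stimulus. RNA was taken on day 10 from 3 control and 3 LIPUS samples, and each was labelled with Cy3 and put on its own single-colour Agilent array. How long after the last ultrasound the cells were taken is not given in the sources used here. The labels do not say whether samples of a group are separate animals or cultures, so p-values measure only the spread between these samples.

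AP-1 is a pair of basic leucine zipper proteins that grip DNA at the sequence TGACTCA. Jun proteins pair with each other or with Fos proteins, whereas Fos proteins need a Jun partner. Fos, Jun, Junb and Atf3 are immediate early genes, switched on within minutes by growth factors, stress or mechanical load without new protein synthesis, and their mRNAs are short-lived. In bone, c-Fos is required for osteoclasts to form from the macrophage lineage, and the Fos-related proteins encoded by Fosl1 and Fosl2 act in osteoblasts and bone matrix formation.

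Levels below are log2 brightness after background correction, relative to the 75th percentile of the same array, so 0 means as bright as that percentile. Between 53.5% and 61.9% of probes were above background on each array. The labels give no slide or scan, but the spot coordinates place the arrays in different scanned images. The spot grids of control 1 and control 2 were tilted by 0.093 and 0.094 coordinate units per column, and those of control 3 and the LIPUS arrays by 0.052 to 0.060. Control 1 and LIPUS 2 also cover nearly the same stretch of the scan, from 33985 to 44770 and from 34010 to 44790. Control 1 and control 2 are therefore called scan 1, and control 3 with the 3 LIPUS arrays scan 2. Only control 3 shares a scan with LIPUS, so values within scan 2 are given beside the results of each AP-1 and ATF3 gene.

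The question was which AP-1 genes differ after ultrasound during osteogenic culture. Fos and Jun fell in LIPUS, by 2.99-fold and 2.30-fold, and the other 5 genes tested did not pass. Called genes are those whose adjusted p (Benjamini-Hochberg, limma fitted over all tested) lay under 0.05. Fewer cells of a type cannot be told apart from less RNA per cell in such bulk samples. Of the 7 genes, 2 were called, both lower, where 6.63% of all tested were called in either direction and 3.74% lower. On the plot of levels by array, the LIPUS points lie clear of the control points for Fos, for Jun and for the second Jund probe. Across all tested genes, 27.2% had groups that did not overlap, and 12.7% had every LIPUS array below every control array.

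**Figure D1:**
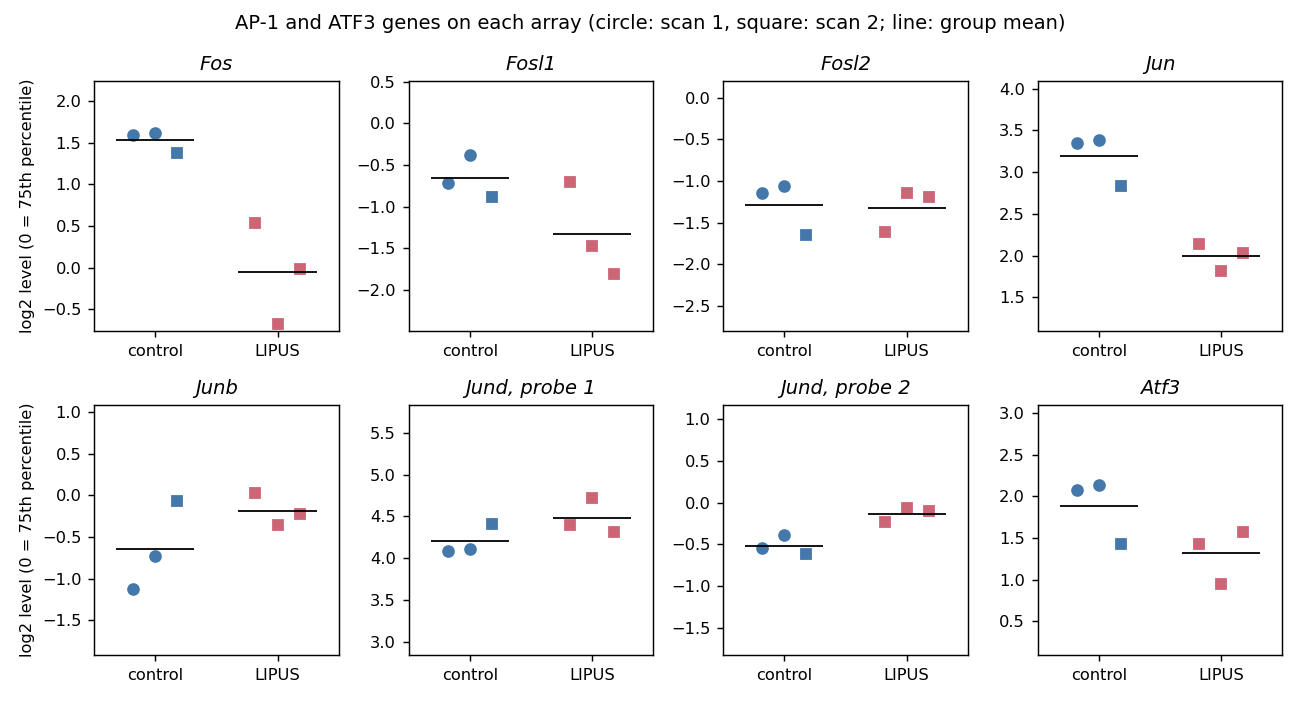
Log2 level of each AP-1 and ATF3 probe on the 6 arrays, relative to the array's 75th percentile, with every panel spanning 3 log2 units; lines are group means (n = 3), circles are scan 1 and squares scan 2. Fos ranged from 1.37 to 1.62 in control and from −0.68 to 0.53 in LIPUS, while for Junb and Atf3 control 3 lies among the LIPUS arrays.

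Among the Fos proteins, Fos (NM_022197), the defining immediate early subunit, had log2 levels of 1.59, 1.62 and 1.37 in control. In LIPUS it read 0.53, −0.68 and −0.013. Before scaling, its spot stood 2706, 2208 and 2582 brightness units above local background in control and 1097, 328 and 639 in LIPUS. Every LIPUS array was below every control array, and the LIPUS arrays were spread more widely (SD 0.60) than the controls (SD 0.13). The change was −1.58 ± 0.27 (SE; limma adjusted p = 0.00923, n = 3 each), the 89th lowest of the 21847 tested. Against control 3 alone, within scan 2, the change was −1.43. With scan as a fixed block, in a fit that called 1.29% of all tested, Fos was not called (limma adjusted p = 0.160). With scan as a random block the change was −1.54 and it was called (limma adjusted p = 0.0202).

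Fosl1 (NM_012953) encodes Fra-1, a Fos relative without the activation domain of c-Fos that promotes bone matrix production. Its levels were −0.71, −0.37 and −0.89 in control and −0.71, −1.47 and −1.81 in LIPUS. LIPUS 1 lay inside the control range and the other LIPUS arrays below it. The change of −0.67 ± 0.27 (SE) did not pass (limma adjusted p = 0.187), and its unadjusted 95% interval ran from −1.28 to −0.057. Within scan 2 the change was −0.44. With 1 array left out it ran from −0.98 without LIPUS 1 (limma adjusted p = 0.0539) to −0.43 without LIPUS 3 (limma adjusted p = 0.442). The probe was dim: its lowest reading was 1.71 times the background limit.

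Fosl2 (NM_012954) encodes Fra-2, which acts in osteoblast and chondrocyte maturation. It read −1.14, −1.06 and −1.65 in control and −1.61, −1.15 and −1.20 in LIPUS, so the groups covered the same range. The change was −0.033 ± 0.21 (SE; limma adjusted p = 0.948), with a 95% interval from −0.51 to 0.44, and it read 0.33 within scan 2. The lowest reading was 1.59 times the background limit.

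Among the Jun proteins, Jun (NM_021835), the strongest activator of the family, is the best measured gene of the set, because its probe was printed on 10 spots of every array. Its levels were 3.35, 3.39 and 2.84 in control and 2.14, 1.82 and 2.03 in LIPUS. The mean brightness above background reached 9535, 7966 and 7410 units on controls and 3630, 2367 and 3025 in LIPUS. All control arrays were above all LIPUS arrays, with control 3 the lowest of the controls. The change was −1.20 ± 0.20 (SE; limma adjusted p = 0.00714, n = 3 each), the 256th lowest of the 21847 tested. Within scan 2 the change was −0.85. Jun was not called with scan as a fixed block (limma adjusted p = 0.107) and was called with scan as a random block (−1.11, limma adjusted p = 0.0156).

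The 10 Jun spots show the measurement error inside an array. Their SD on each array read 0.30, 0.31 and 0.20 among controls and 0.26, 0.26 and 0.24 in LIPUS. The array means had an SD of 0.31 in control and 0.16 in LIPUS. The lowest of the 10 spots on control 3 read 2.60 and the highest on LIPUS 1 also read 2.60, so single spots of these neighbouring arrays met at their extremes. On controls 1 and 2 the lowest spot read 2.88 on both arrays, above every LIPUS spot.

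**Figure D2:**
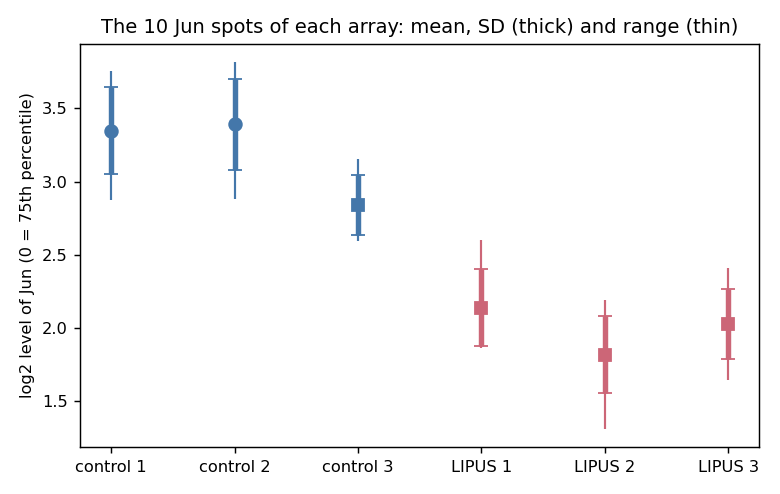
Log2 level of the 10 spots of the Jun probe on each array; symbols are means (circles scan 1, squares scan 2), thick bars SD and thin lines the range. Array means ran from 2.84 to 3.39 in control and from 1.82 to 2.14 in LIPUS.

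Junb (NM_021836) encodes a weaker activator that can oppose c-Jun, and is itself an immediate early gene. It read −1.13, −0.72 and −0.072 in control and 0.030, −0.36 and −0.23 in LIPUS. Control 3 was inside the LIPUS range and both arrays of scan 1 were below it. The change was 0.46 ± 0.26 (SE; limma adjusted p = 0.337) over all arrays and −0.11 within scan 2. Control 3 stood 0.85 above the mean of controls 1 and 2, a gap larger than that of all but 4.18% of tested genes. The deposited value table did not show this gap. There Junb read −0.66, −0.58 and −0.57 in control and 0.056, −0.79 and −0.76 in LIPUS.

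Jund (NM_138875) encodes the Jun protein that most cells make constantly and is the least inducible of the family. Its first probe read 4.08, 4.11 and 4.41 in control and 4.40, 4.72 and 4.31 in LIPUS, and the groups overlapped. That change was 0.28 ± 0.18 (SE; limma adjusted p = 0.413), with a 95% interval from −0.13 to 0.68, and it turned to −0.073 under scaling to spike-in controls. Within scan 2 it was 0.065. The second probe read −0.55, −0.39 and −0.62 in control and −0.23, −0.060 and −0.10 in LIPUS. Within scan 2 its change was 0.49. Its groups did not overlap, and the change of 0.39 ± 0.16 did not pass with every probe tested on its own (limma adjusted p = 0.185). In the value table deposited by the authors this was reversed. There the groups overlapped for the second probe, with a change of 0.062. For the first probe they did not (4.29, 4.21 and 4.34 against 4.82, 4.61 and 4.57), as for 28.5% of tested genes in that table.

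The promoters of Junb and Jund are shown because these are the Jun genes that did not fall beside Jun. They come from RefSeq, build GRCr8, and run from 250 bases before to 50 bases after the gene start, written 5′ to 3′ on the gene's strand. Junb lies at chr19:40080876-40081175 on the plus strand and Jund at chr16:18769722-18770021 on the minus strand. Capitals mark motif matches on either strand. The motifs searched were the AP-1 site TGACTCA, the cyclic AMP response element TGACGTCA bound by ATF and CREB proteins, the CArG box bound by serum response factor, and CCAAT.
Junb: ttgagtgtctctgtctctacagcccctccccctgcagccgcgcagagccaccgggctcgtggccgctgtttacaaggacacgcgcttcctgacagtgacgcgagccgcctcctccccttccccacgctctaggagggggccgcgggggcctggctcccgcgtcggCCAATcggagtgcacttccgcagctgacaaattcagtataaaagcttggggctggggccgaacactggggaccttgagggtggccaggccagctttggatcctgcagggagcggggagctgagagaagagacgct
Jund: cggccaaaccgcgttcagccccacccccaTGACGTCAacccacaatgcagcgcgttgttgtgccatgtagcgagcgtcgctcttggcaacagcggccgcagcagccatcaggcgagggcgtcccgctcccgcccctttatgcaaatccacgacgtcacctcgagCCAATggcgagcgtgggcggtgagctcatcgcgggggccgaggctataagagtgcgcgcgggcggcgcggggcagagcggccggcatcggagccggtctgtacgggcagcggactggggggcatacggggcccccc
Jund holds TGACGTCA at bases −221 to −214 from the gene start, a motif present in 1.83% of 33469 promoters of this length. Both promoters hold CCAAT, at −85 to −81 in Junb and −86 to −82 in Jund, as do 37.5% of promoters. The AP-1 site, found in 4.63% of promoters, and the CArG box, found in 1.64%, had no match in the windows of Junb, Jund, Fosb, Fosl1 or Fosl2, which says only that these letters are not there. The promoters of Fos, Jun and Atf3 were not used here.

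Atf3 (NM_012912) encodes a stress-induced factor that represses transcription as a homodimer, pairs with Jun proteins, and is a target of the stress factor ATF4. Its levels were 2.08, 2.14 and 1.42 in control and 1.43, 0.95 and 1.57 in LIPUS. Controls 1 and 2 were above all LIPUS arrays and control 3 was inside the LIPUS range. The change was −0.56 ± 0.24 (SE; limma adjusted p = 0.206) over all arrays and −0.11 within scan 2. In the value table deposited by the authors the same probe read 2.38, 2.26 and 1.91 in control and 1.29, 1.38 and 1.34 in LIPUS. There the groups did not overlap, as for 28.5% of tested genes in that table, and the change was −0.85 ± 0.17 (SE; limma adjusted p = 0.0580). Control 3 is thus separate from LIPUS in the deposited values, with a change of −0.57 within scan 2, but not in the spot brightness.

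The deposited value table gave Fos a change of −1.54 ± 0.36 (SE) and Jun −1.11 ± 0.24, with groups that did not overlap for either gene. Neither passed in it (limma adjusted p = 0.0771 and 0.0628), in a fit that called 3.68% of all tested. The sizes differed from those of the spot brightness by less than their standard errors. In that table Junb read 0.11 ± 0.26, Fosl1 −0.41 ± 0.26, Fosl2 −0.047 ± 0.15 and the first Jund probe 0.38 ± 0.15, and none of these passed in limma. Scaling to spike-in controls moved the median change of all tested genes by −0.35, and relative to that scale Fos was −1.93 and Jun −1.55. The plot of changes under 4 ways of processing shows Fos and Jun on the lower side under each of them.

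**Figure D3:**
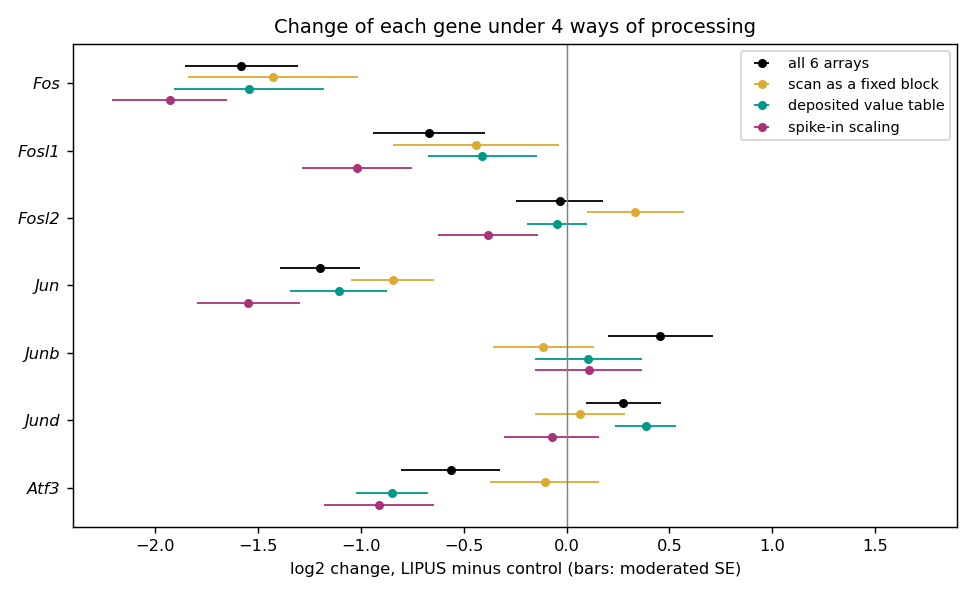
Log2 change, LIPUS minus control, of the 7 genes tested, with moderated standard errors, for all 6 arrays, with scan as a fixed block, in the deposited value table and under spike-in scaling. Fos lies between −1.93 and −1.43 and Jun between −1.55 and −0.85, while Fosl2, Junb and Jund have values on both sides of 0.

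Differences among the controls were as large as several of these changes. Control 3 was below the mean of controls 1 and 2 with a gap of −0.23 for Fos and −0.53 for Jun, and the gap was −0.68 for Atf3 and −0.55 for Fosl2. The median absolute gap of control 3 over all tested genes was 0.28. For 3 of the 7 genes, Fos, Jun and Fosl2, control 3 fell outside the range of the LIPUS arrays, and for Fosl2 it was the lowest array of all. The same held for 62.3% of all tested genes.

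The named genes whose profile over the 6 arrays was nearest to that of Fos were Syk, a tyrosine kinase of immune receptors, B4galnt1, a ganglioside synthase, and Esam, an endothelial adhesion molecule. Likeness was taken as the root mean square difference of profiles centred on their own mean, and it was 0.15, 0.17 and 0.18 log2 units, where the median tested gene stood at 0.91. Nearest to Jun were the nucleoside transporter gene Slc28a2, the blood cell phosphatase gene Ptpn6 and the deiodinase gene Dio3, at 0.073, 0.086 and 0.089, with a median of 0.68. The profiles of Fos and Jun stood 0.33 apart. Of all tested genes, 0.43% were nearer to Fos than Jun was, and 3.9% were nearer to Jun than Fos was. Fos set LIPUS 1 and LIPUS 2 apart, by 0.53 against −0.68, whereas Jun set control 3 apart from the other controls.

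Markers of other cells in the culture moved with the same comparison. Of all tested genes with a symbol, 8.69% were called, 5.3% lower and 3.39% higher. Among macrophage markers, 9 of 16 tested fell and 1 rose, and their summed level, relative to the 75th percentile, was 558 to 662 in control and 463 to 497 in LIPUS, with control 3 at 558. Probes at the scanner limit have only a bound, and without the 5 that reached it on any array the sum was 227 to 245 against 71.9 to 88.9, a setting chosen after seeing the data. Endothelial markers fell for 3 of 5 tested (sum 6.02 to 6.70 in control, 2.61 to 2.95 in LIPUS). Cell cycle genes fell for 6 of 8 (31.2 to 38.7 against 18.7 to 19.1), and osteoblast markers rose for 8 of 15 (435 to 524 against 637 to 732, or 125 to 140 against 246 to 259 without 5 probes at the limit). Of those 5, Spp1, Bglap, Col1a2 and Sparc were at the limit on all 6 arrays. All 15 osteoblast markers with a probe were tested, and the only B cell marker with a probe, Cd79b, was too dim. Adipocyte markers rose for 2 of 8 tested. Their sum (172 to 221 against 212 to 245) was mostly Cfd and Fabp4, at the limit on 6 and 4 arrays, and without them the groups overlapped (46.4 to 57.2 against 53.9 to 60.6). For neutrophils, 1 of 2 neutrophil markers rose (0.892 to 1.18 against 1.39 to 2.03). Mast cell markers did not pass for any of 7 tested, nor did the only erythroid marker tested. The defining markers Pecam1, Flt1 and Emcn of endothelium, S100a9 of neutrophils, and Gata1, Hbb and Alas2 of red cells were too dim to test. The part of these cells in the fall of Fos and Jun was not tested.

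Genes that act around AP-1 were taken from 7 lists with 218 symbols. Of these, 136 were tested, and 18 were lower, 4 higher and 114 did not pass. That is 16.2% called, where 8.69% of all tested genes with a symbol were called, 5.3% lower and 3.39% higher. The median change of all tested genes was 0.034. The limma adjusted p of the 22 called genes ran from 0.000607 to 0.04995. The lists were written with earlier results of these data known and are given as counts only. The named genes are up to 4 per list with the smallest p, and further genes chosen after their values were seen: Arc, Btg2, Rgs1, Nr4a1 and Gja1, which were called, and Myc, Nr4a3, Zfp36, Dusp1, Atf2, Atf4, Ctsk and Acp5, which did not pass.

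**Figure D4:**
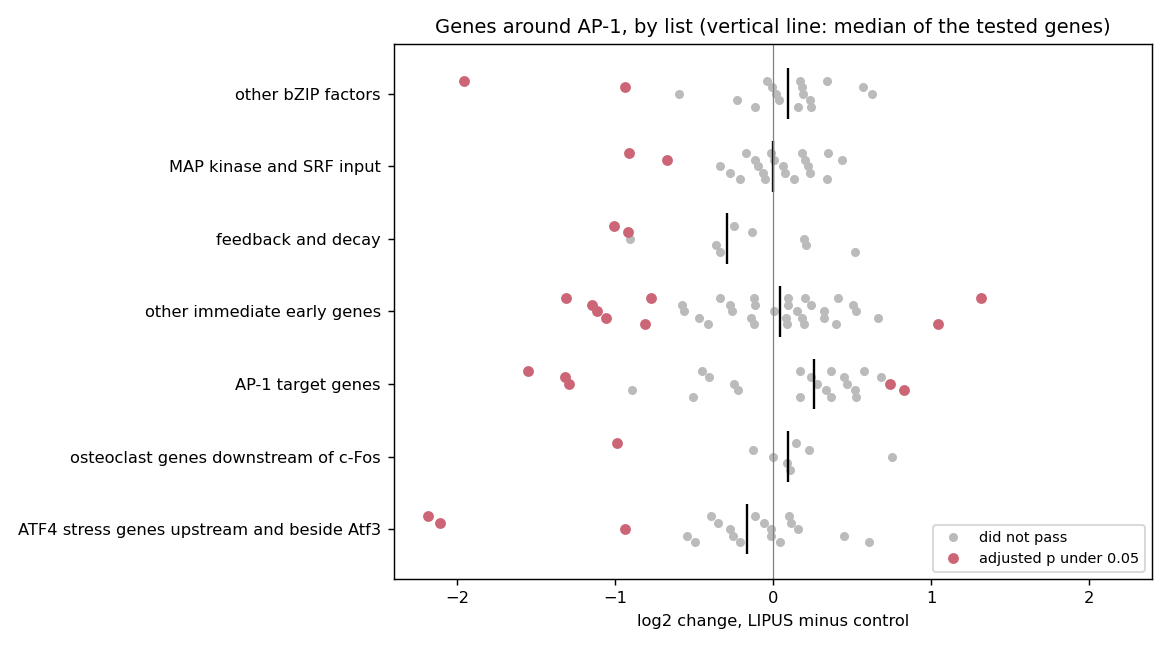
Log2 change, LIPUS minus control, of the tested genes in 7 lists of genes around AP-1; each point is a gene, filled red where the limma adjusted p was under 0.05, and vertical lines are list medians. Called genes lie mostly on the left, from −2.18 for Trib3 to −0.67 for Map3k8, and 4 lie on the right, up to 1.32 for Phlda1.

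Other immediate early genes did not move one way. Of 36 tested, 6 fell, 2 rose and 28 did not pass (22.2% called, against 8.69% of all tested genes with a symbol). Their median was 0.045. Among those that fell were Egr1 (NM_012551; −1.31 ± 0.27, SE), a zinc finger factor induced with Fos by serum, and its relative Egr2 (NM_053633; −1.06 ± 0.18). Arc, Btg2, Rgs1 and Nr4a1 fell by 1.14, 1.11, 0.81 and 0.77. Phlda1 (NM_017180; 1.32 ± 0.17) and the stress sensor gene Gadd45b (NM_001008321; 1.05 ± 0.18) rose. Without single arrays, the limma adjusted p reached 0.0907 for Egr1 (without control 1, control 2, LIPUS 2 or LIPUS 3) and up to 0.148 for Nr4a1. Arc kept its call only without LIPUS 1, and Btg2, Rgs1 and Nr4a1 only without control 3. With scan as a fixed block 0 of the 36 were called, where 1.29% of all tested were. The changes were then −0.80 for Egr1, −0.64 for Btg2, −0.54 for Rgs1 and −0.41 for Nr4a1, but −1.04 for Egr2 and −1.12 for Arc. With scan as a random block Egr1, Btg2, Rgs1 and Nr4a1 were not called (limma adjusted p from 0.0518 to 0.0965). The proto-oncogene Myc (0.095 ± 0.15) and Nr4a3 (0.66 ± 0.24) did not pass. The list's median was −0.30 under spike-in scaling, where all tested genes had −0.31. In the deposited value table it was −0.24, where all tested genes had −0.031, and 3 of its genes were called there, all of them higher.

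Upstream of AP-1, kinases of the MAP kinase cascades phosphorylate Jun and the factors that switch on Fos. Of 22 tested genes of this input, 2 fell and 20 did not pass, with a median of −0.0027. That is 9.09% called, close to the 8.69% of all tested genes with a symbol. The growth factor-activated kinase gene Rps6ka1 (NM_031107) fell by 0.91 ± 0.16 and Map3k8 (NM_053847), a kinase upstream of ERK, by 0.67 ± 0.17, the latter at a limma adjusted p of 0.04995. Map3k8 lost its call without any 1 array other than control 3 (limma adjusted p up to 0.164). Of 10 tested genes that damp the pathway, 2 fell (20% called, against the same 8.69%). These were the ERK phosphatase gene Dusp6 (NM_053883; −0.91 ± 0.19) and Dusp5 (NM_133578; −1.01 ± 0.24). Dusp6 was no longer called without control 1, without LIPUS 1 or without LIPUS 2 (up to 0.0921) and Dusp5 without any 1 array other than control 3 (up to 0.140). The mRNA decay factor gene Zfp36 read −0.91 ± 0.29 and the phosphatase gene Dusp1 read −0.33 ± 0.19, and neither passed (limma adjusted p = 0.106 and 0.346). The list's median was −0.29, and −0.64 under spike-in scaling, where all tested genes had −0.31.

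Among 18 other basic leucine zipper factors tested, 2 fell and 16 did not pass (11.1% called, against 8.69% of all tested genes with a symbol). Their median was 0.096, and −0.25 under spike-in scaling, where all tested genes had −0.31. Ddit3 (NM_024134), which encodes the stress factor CHOP, fell by 0.94 ± 0.15 (limma adjusted p = 0.00728). Atf2, a partner of c-Jun at TGACGTCA sites, read 0.57 ± 0.25 and did not pass. Ddit3 also belongs to the ATF4 stress genes, the pathway that induces Atf3. Of 20 of these tested, 3 fell and 17 did not pass (15% called, against the same 8.69%). Their median was −0.16, and −0.51 under spike-in scaling. Besides Ddit3, the genes that fell were Trib3 (NM_144755; −2.18 ± 0.20), a target of ATF4 and CHOP, and the arginine transporter gene Slc7a3 (NM_017217; −2.11 ± 0.23). Atf4 itself read −0.12 ± 0.15 and did not pass.

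Genes with known AP-1 control were called in both directions. Of 24 tested, 3 fell, 2 rose and 19 did not pass (20.8% called, against 8.69% of all tested genes with a symbol). Their median was 0.26 and turned to −0.089 under spike-in scaling. The median of 0.26 falls between Bglap (0.24) and Spp1 (0.28), whose probes were saturated in each of the 6 samples. Saturated readings cannot give the size of a change, so neither median shows a shift of this list. Hmox1 (NM_012580; heme oxygenase) fell by 1.29 ± 0.16, the chemokine gene Ccl2 (NM_031530) by 1.55 ± 0.24 and the proenkephalin gene Penk (NM_017139) by 1.32 ± 0.16. The other Penk probe read 0.0019 and did not pass. The metalloproteinase inhibitor gene Timp1 (NM_053819) was at least 1.77-fold higher, since its probe was at the scanner limit on all 3 LIPUS arrays, and the gap junction gene Gja1 (NM_012567) rose by 0.74 ± 0.17. Timp1 was no longer called without control 1, without LIPUS 2 or without LIPUS 3 (limma adjusted p up to 0.0659) and Gja1 without any 1 array other than control 3 (up to 0.108), and neither was called under spike-in scaling. Of 8 tested genes of osteoclasts and of their regulation (median 0.096, or −0.25 under spike-in scaling), 1 fell (12.5%, against 8.69% of all tested genes with a symbol). This was the macrophage growth factor receptor gene Csf1r (NM_001029901; −0.98 ± 0.21), which is also among the macrophage markers. The osteoclast enzyme genes Ctsk and Acp5 read 0.11 ± 0.20 and 0.23 ± 0.16 and did not pass. Calcr, Tnfsf11, Itgb3, Mmp9 and Ocstamp were too dim to test. Csf1r was no longer called without control 1 or without any 1 LIPUS array (limma adjusted p up to 0.0833).

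Of the 22 called genes in these lists, 11 remained called whichever array was left out, among them Ddit3, Rps6ka1, Phlda1, Egr2, Gadd45b, Hmox1, Penk, Ccl2, Trib3 and Slc7a3. Of the 22, 11 were called in the deposited value table, and Rps6ka1 (limma adjusted p = 0.121), Egr2 (0.275) and Gadd45b (0.0655) were not. With scan as a random block 16 kept their call. With scan as a fixed block 5 kept their call in limma, among them Trib3 (adjusted p = 0.0260), Csf1r (0.0340), Hmox1 (0.0384) and Penk (0.0467).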

How the data were processed

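Per the labels, Cy3-labelled RNA of each sample was put on a one-colour Agilent array. Per the file headers, the deposited spot tables hold spot and background medians as intensity, the share of pixels at the scanner limit in percent, and flags and positions as a score. The authors also deposited a value table on a log2 scale, found from its values: its 75th percentile is 0 in every column and its medians run from −2.85 to −2.37. Its making and the scanner were not given in the sources used here. Spot medians were background-corrected (normexp, offset 50), put on the log2 scale, averaged by probe and scaled to each array's 75th percentile. A probe counted as above background when brighter than 95% of the 153 negative control spots, on at least 3 arrays, which left 23260 of 41012 probes. A probe with over 50% of pixels at the limit counted as saturated. The brightest probe stood for each symbol, matched by accession to RefSeq (GRCr8, names only). Groups were compared with limma 3.58.1 (R 4.3.3, two-sided), tested on simulated data, with Benjamini-Hochberg adjustment over all 21847 tested. Plots used matplotlib 3.10.9. Genes named are the members, up to 4 called genes of each list by smallest p, and the 3 profiles nearest to Fos and Jun; 1 gene the rule names is not reported here. List genes outside this rule were chosen after their values were seen. Members and lists were chosen with earlier results of these data known. The number of arrays limits the precision. Alternatives were other scalings, background corrections, filters, blocks, the value table and leaving out each array.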

Additional observations from a re-analysis of the deposited data

How the results depend on the processing

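The number of genes called (1449) was 3646 with spike-in scaling (5.35% of them higher, against 43.6%), 671 with background subtraction to a floor, 655 with no filter on dim probes, 805 in the value table and 282 with scan as a fixed block. Median scaling gave 1462 calls, 32.3% of them higher. The arrays of scan 2 gave 0 calls in limma, with 3339 at an unadjusted p under 0.05. Leaving out 1 array gave 642 to 2168 calls. Among pathway genes the 22 calls became 37, 12, 11, 5 and 0 with spike-in scaling, the floor, no filter, the fixed block and scan 2 only, and 11 to 29 without 1 array. Fos lost its call with the floor (−1.74), in the value table (−1.54), and with the fixed block or scan 2 only (−1.43), and Jun in the value table (−1.11) and with the block or scan 2 only (−0.85). Both kept their calls whichever array was left out, between −1.87 and −1.27 for Fos and between −1.38 and −1.10 for Jun. Fosl1 (−1.02) and Atf3 (−0.91) passed only with spike-in scaling. Values that never passed changed sign for Fosl2 with the fixed block or scan 2 only (0.33), with scan as a random block (0.063) and without 1 array (−0.22 to 0.11), for Junb with the fixed block or scan 2 only (−0.11), and for Jund with spike-in scaling (−0.073). The causes were not tested. The replicate block gave 1175 calls and kept those of Fos (adjusted p = 0.00785) and Jun (0.0116) in limma. Deviations of same-numbered arrays correlated at 0.0011, 0.0095 and −0.012. This cannot decide whether the numbers pair samples, because the control arrays also differ by scan and the LIPUS arrays do not. With 1 control array in scan 2, the fit on scan 2 only takes its spread from the LIPUS arrays. Fosl1 and Fosl2 lie near the background limit, which limits what their values show.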
